A study of Mus musculus with 136 samples.

Results

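The late step of the lipid A response was taken as the change in chromatin-associated RNA of wild-type mouse macrophages at 6 h, set against 2 h. The members are 18 of the 136 libraries of the series, 9 at 6 h and 9 at 2 h. They were chosen by label as wild type of the Nfkb1 series (replicates 1 to 3), the Nfkbiz and Bcl3 series (replicates 1 and 2 each) and the Nfkbid series (replicates 2 and 3), which gives 9 pairs by series and replicate number. Replicate 1 of the Nfkbid series stands apart in its nuclear RNA and is outside the rule. All groups were bone marrow-derived macrophages, cells grown from marrow for 6 days in 8% M-CSF, the growth factor that drives macrophage differentiation. The wild-type mice are given as C57/B16, and the knockout mice as Nfkb1-/-, Nfkbiz-/-, Bcl3-/- and Nfkbid-/-, with no ages used here. The groups used here are wild type at 6 h and at 2 h of lipid A, the knockouts at the same times, and wild type at 0, 0.5 and 1 h as the course before the step. The study follows p50 and the nuclear IkB proteins, and the step asks which genes are switched on or off late in the response.

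Lipid A is the part of bacterial endotoxin that TLR4 recognises. TLR4 signals through MyD88 and TRIF to NF-kB, MAP kinases and interferon regulatory factors, and the early wave of transcription is followed by secondary genes that need newly made proteins such as IkBz or interferon beta. RNA bound to chromatin is mostly RNA in the course of being made, so it follows transcription more closely than the RNA of whole cells does.

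The 18 libraries held 11.5 to 34.6 M reads (M is 1e6), with a median of 28.9 M, as recovered from the value of 1 read. Values are RPKM, reads per kilobase of gene span per 1e6 reads. The macrophage list kept summed levels of 40.04 to 60.2 RPKM at 6 h and 19.4 to 62.7 RPKM at 2 h. The 6 lists of neutrophil, dendritic, lymphocyte, mast cell, erythroid and stromal markers stayed at or under 0.744 RPKM in sum in every library, and none of their genes reached the level needed for testing. The deposited values hold 7 of 9 neutrophil, 2 of 6 dendritic and 5 of 6 lymphocyte markers. They hold 3 of 5 mast cell, 3 of 4 erythroid and 5 of 7 stromal markers, so the sums leave the rest out. One pair, replicate 1 of the Nfkb1 series, had a median change of -0.18 over all tested genes, against 0.02 to 0.19 in the other 8 pairs.

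Of 3241 genes tested, 236 were higher at 6 h (7.28%) and 152 were lower (4.69%), by limma with an adjusted p under 0.05 and a change of at least 2-fold, and 12% passed in either direction. With libraries centred on their median the split was 195 higher and 189 lower. All changes are on the log2(RPKM + 0.5) scale, which understates the change of low genes, and errors after ± are standard errors. The change went the same way in all 9 pairs for 231 of the 236 and for 148 of the 152 genes. The libraries of both times did not overlap for 147 and 93 of them, against 13.2% of all tested genes. The calls were made from these same pairs, so neither count is separate support for them. How many of all tested genes went the same way in all 9 pairs was not counted. In this data set the size limit decided the counts: all 388 genes past 2-fold also passed the adjusted p, the largest of which was 0.0010, and 2338 genes passed the p alone. The median change over all tested genes was 0.06.

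**Figure D1:**
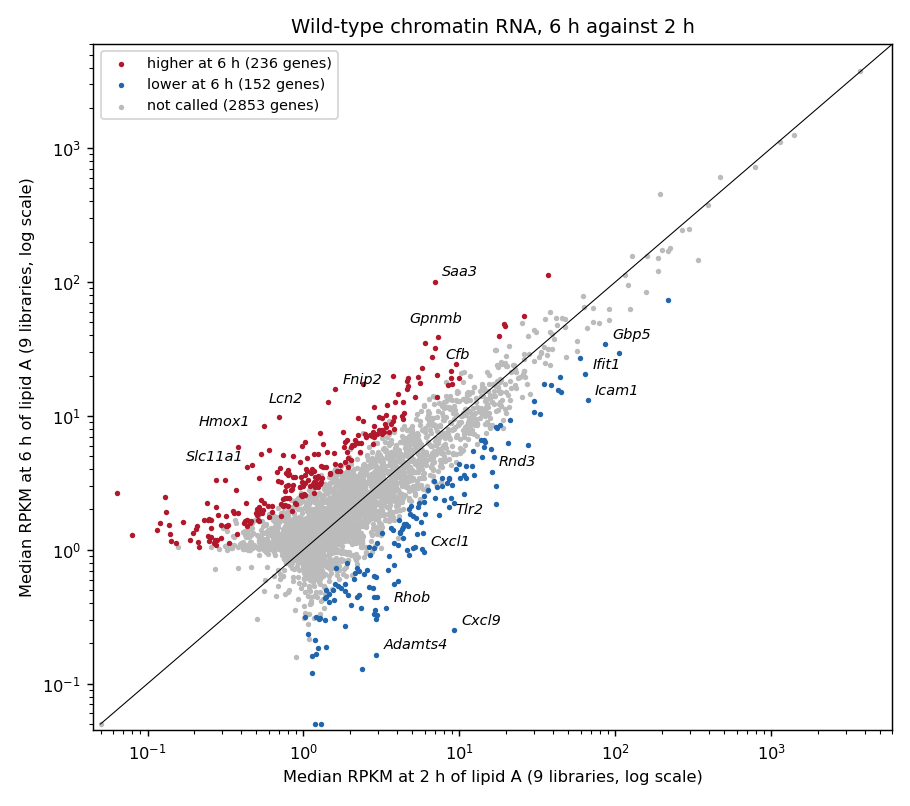
Each point is 1 of 3241 tested genes, with its median RPKM over 9 wild-type libraries at 6 h (vertical) and at 2 h (horizontal), both on log scales; medians under 0.05 RPKM are drawn at 0.05. The 236 higher genes lie above the line of equal levels and the 152 lower genes under it, with Saa3 and Cxcl9 among the labelled genes.

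Among genes that rose in all 9 pairs, the largest rises were those of Saa3 and Lcn2, an acute-phase and an antimicrobial gene. Saa3, which encodes an acute-phase apolipoprotein made by macrophages, had 81.5, 100.5 and 152 RPKM (lowest, median, highest) at 6 h and 2.23, 6.96 and 11.7 RPKM at 2 h, a rise of 4.06 ± 0.22 (adjusted p = 4.1e-08 by limma). Lcn2, whose protein withholds iron from bacteria, had 4.95, 9.75 and 17.6 RPKM at 6 h and 0.253, 0.702 and 1.07 RPKM at 2 h, a rise of 3.18 ± 0.15. For both genes every 6 h library lay above every 2 h library. Cfb, complement factor B, had a median of 32.3 RPKM at 6 h and 6.98 RPKM at 2 h, and rose by 2.31 ± 0.11. Of the 21 tested acute-phase, antimicrobial and effector genes, 10 rose and 3 fell, and the median of the list was 0.83. Over all tested genes 7.28% rose and 4.69% fell. Ptges and Ptgs2, enzymes of prostaglandin E2 synthesis, rose by 1.83 ± 0.07 and 1.59 ± 0.08. Fpr1 and Fpr2, receptors for formylated bacterial peptides, rose by 1.09 ± 0.11 and 1.08 ± 0.12. The 3 that fell were Adamts4 and Mmp13, proteases of the extracellular matrix, and Il4i1, an amino acid oxidase.

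Some of the genes that rose had been transcribed before lipid A. Of the 236 higher genes, 85 had their highest median before lipid A (36.02%), 37 at 0.5 h, 10 at 1 h and 104 at 6 h (44.1%). Over all 3241 tested genes, 39.6% had their highest median before lipid A and 17.8% at 6 h, so the first share is near that of all genes. As the calls needed a rise from 2 h to 6 h, 0 of the 236 had their highest median at 2 h. The 6 h share is thus raised by the selection. Hmox1, which encodes the haem-degrading enzyme haem oxygenase 1, had median levels of 3.55, 1.28, 0.579, 0.559 and 8.44 RPKM over the 5 times in order, and its late change was 3.11 ± 0.15. Slc11a1, a metal transporter of the phagosome, had 3.82, 2.23, 1.86, 0.538 and 5.24 RPKM at these times and a late change of 2.29 ± 0.14. Gpnmb, a transmembrane glycoprotein of lysosomes, had 60.2, 46.8, 32.0, 7.35 and 38.5 RPKM and a late change of 2.22 ± 0.16. Its level at 6 h was thus below that at 0 h. Fnip2, a partner of folliculin, had 25.9, 11.4, 10.99, 1.61 and 15.9 RPKM, with a late change of 3.07 ± 0.12, and overlaps another gene. Maf and Csf1r of the macrophage list also rose, by 1.28 ± 0.10 and 1.14 ± 0.22.

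Other genes among the 15 largest rises were Rnf149, an E3 ubiquitin ligase, with medians of 17.2 RPKM at 6 h and 2.42 RPKM at 2 h, and Dok3, with 5.98 RPKM at 6 h and 0.984 RPKM at 2 h. Cotl1, an actin-binding protein, had 2.49 RPKM at 6 h and 0.129 RPKM at 2 h, and its libraries did not overlap. The ferritin chains Fth1 and Ftl1, which store iron, and several genes of lysosomes were picked after their values were seen. Fth1 had 85.5, 112 and 145 RPKM at 6 h and 21.2, 37.2 and 50.4 RPKM at 2 h, a rise of 1.67 ± 0.09, and Ftl1 rose by 1.53 ± 0.12. Lgmn, a lysosomal protease, rose by 1.6 ± 0.09, the sialidase Neu1 by 1.42 ± 0.08 and the proton pump subunit Atp6v0d1 by 1.53 ± 0.07. Ctsb and Ctsd, cathepsins that digest protein, rose by 1.03 ± 0.07 and 1.11 ± 0.19, and their median levels at 6 h, 39.3 and 17.4 RPKM, were below those before lipid A, 53.5 and 43.2 RPKM.

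**Figure D2:**
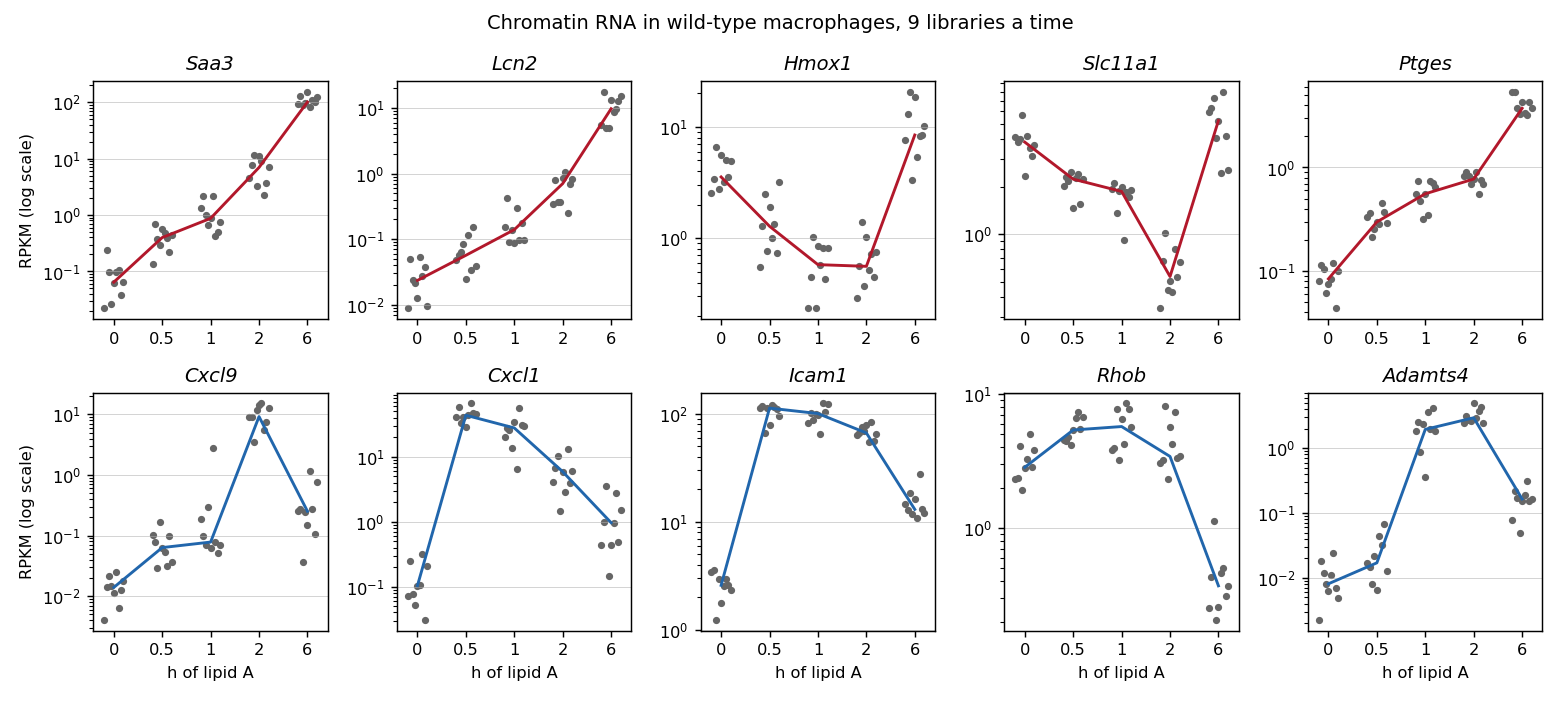
RPKM on a log scale (vertical) in the 9 wild-type libraries at each of 5 times of lipid A (horizontal); points are libraries and lines join the medians. Saa3, Lcn2 and Ptges climb to 6 h, Hmox1 and Slc11a1 dip to 2 h before 6 h, and the 5 genes of the lower row drop between 2 and 6 h.

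The falls were led by Cxcl9, a chemokine that draws T cells. Cxcl9 had 0.0365, 0.252 and 1.15 RPKM (lowest, median, highest) at 6 h and 3.49, 9.21 and 15.1 RPKM at 2 h, a fall of 3.56 ± 0.15 on the log2 scale (adjusted p = 1.1e-08 by limma). Icam1, an adhesion molecule for leukocytes, had 10.8, 13.1 and 27.8 RPKM at 6 h and 54.8, 66.6 and 83.8 RPKM at 2 h, and fell by 2.17 ± 0.09. Neither gene had overlapping libraries. Adamts4 had a median of 0.165 RPKM at 6 h and 2.94 RPKM at 2 h, and fell by 2.47 ± 0.09.

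Interferon-inducible GTPases were the interferon-linked list with the most falls past the limit. Of 7 tested interferon-inducible GTPases, which act against pathogens inside cells, 5 fell (Gbp2, Gbp5, Gbp9, Igtp and Ifi47) and none rose, with a list median of -1.05. Gbp2 had a median of 15.5 RPKM at 6 h and 42.7 RPKM at 2 h, and Gbp6 had a change of 0.00. Of 26 type I interferon-stimulated genes, only Ifit1 and Cmpk2 fell past the limit, by 1.5 ± 0.08 and 1.22 ± 0.11, a share near the 4.69% of all tested genes, and the list median was -0.38. By the adjusted p alone, 20 of the 26 were lower and 5 higher, beside 32.1% and 40.02% of all tested genes. Of 15 chemokines, Cxcl9, Cxcl1 and Cx3cl1 fell and none rose (median -0.49), while Ccl2 and Ccl7 had changes of 0.06 and 0.56. Of 9 cytokines, Tnfsf15 and Tnfsf10 fell and none rose (median -0.64), and Il1b, with -0.64, did not pass. Of 15 antigen presentation genes, Cd86, a costimulator of T cells, fell by 1.43 ± 0.17 (median -0.48).

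Lists of regulators, stress and metabolism followed no one direction. None of 10 NF-kB subunits and feedback inhibitors passed in either direction, and their median was -0.18. All 10 had an unadjusted p under 0.05 in limma, and by the adjusted p alone 4 were higher and 4 lower, a share close to the 72.1% of all tested genes that passed it. Nfkb1 and Rel had changes of -0.69 and -0.91. Of 11 immediate-early genes, Ier3 and Fos rose by 1.37 ± 0.15 and 1.15 ± 0.11. Dusp1, a phosphatase that shuts off MAP kinases, rose by 1.23 ± 0.16, and Zfp36, which destabilises cytokine mRNA, by 1.34 ± 0.14. Both had been higher still at 0.5 h, with medians of 55.3 and 70.5 RPKM. Tlr2, a receptor for bacterial lipoproteins, fell by 1.57 ± 0.09, and Ticam1, which encodes TRIF, rose by 1.18 ± 0.09. Of 7 genes of the NRF2 and metal response, 1 rose and 2 fell (median 0.86). The 2 that fell were the metallothioneins Mt1 and Mt2, by 1.22 ± 0.11 and 1.51 ± 0.16. Of 9 genes of glycolysis and HIF-1, Pgam1, Eno1 and Bnip3 rose and Hk2, the hexokinase that starts glycolysis, fell by 1.21 ± 0.10 (median 0.91). Of 6 genes of cholesterol export, Pltp rose and none fell (median 0.81), while Abca1, the main exporter, had a change of 0.92 ± 0.13 and did not pass the size limit. Of 6 nuclear noncoding RNAs none passed, with a median of 0.00, although 3 had an unadjusted p under 0.05 in limma.

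**Figure D3:**
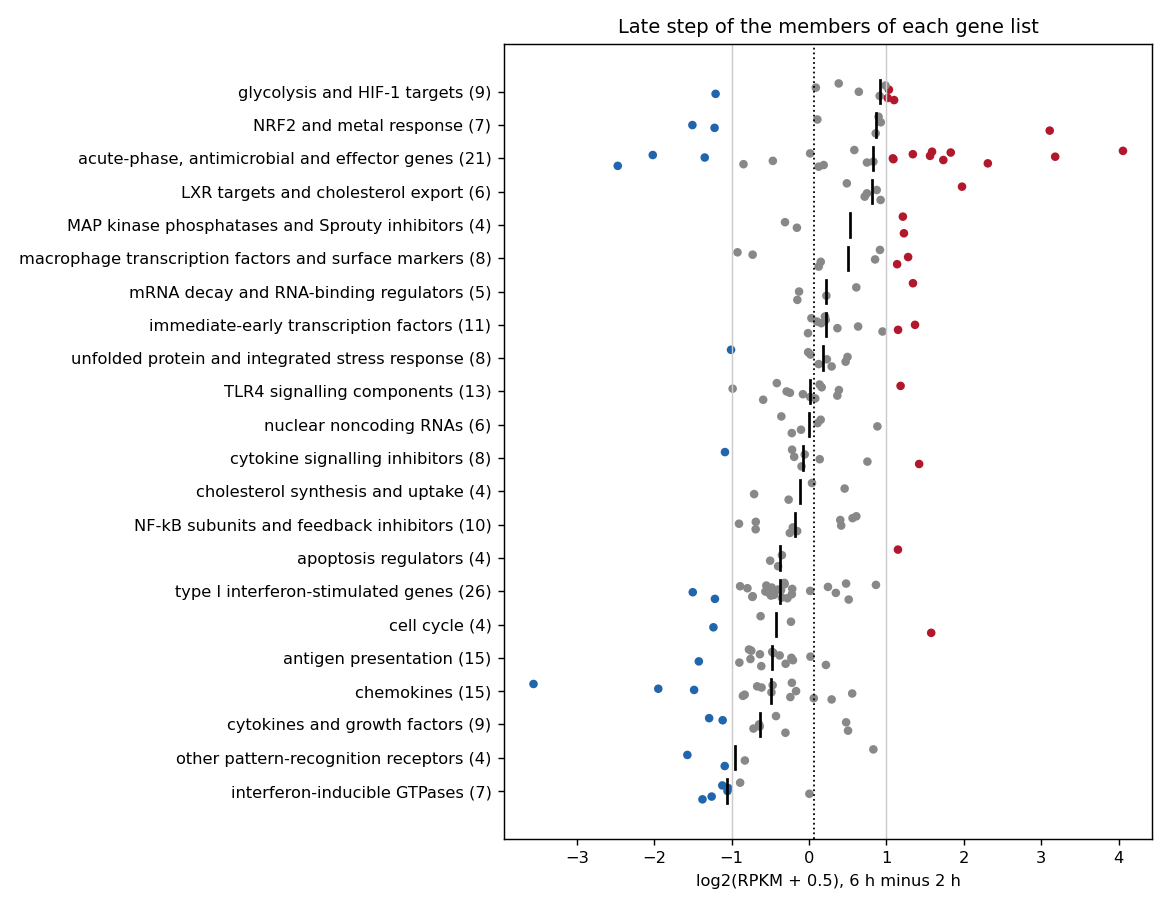
Each point is a tested member of a list, placed by its change from 2 to 6 h on the log2(RPKM + 0.5) scale (horizontal); red points passed as higher, blue as lower, black bars are list medians, and the dotted line is the median of all tested genes. The number of tested members stands beside each name; lists with fewer than 4 are not drawn.

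Genes induced early were set beside the step. Of 124 genes induced at least 5-fold at 0.5 or 1 h, 112 were tested: 10 rose late (8.93%) and 27 fell (24.1%). Their median change was -0.33. Over all 3241 tested genes 7.28% rose and 4.69% fell, so the share that rose is near that of all genes. The 10 were Tnfrsf1b, Ets2, Ell2, Rab20, Dusp1, Zfp36, Snx18, Dhx40, Ptgs2 and Zswim4. Cxcl1, one of the 27, had median levels of 0.103, 43.7, 27.8, 5.89 and 0.965 RPKM over the 5 times.

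Switching was counted on levels: a gene switched on if its median was under 1 RPKM at 2 h and at least 3 RPKM at 6 h, and off if the reverse held. By that rule 28 genes switched on and 10 switched off. The balance rests on the limits: with 0.5 and 2 RPKM in their place, 11 switched on and 14 off. Besides Lcn2, Hmox1, Slc11a1 and Ptges, the genes switched on include Adora2b, an adenosine receptor, Por, the electron donor of cytochromes P450, and Dok3, an adaptor that restrains immune receptor signalling. Adora2b had 3.46, 5.56 and 7.11 RPKM at 6 h and 0.340, 0.605 and 2.11 RPKM at 2 h. The others were H3f3a, Lasp1, Hdac9, Pam16, Zswim1, Glipr1, Spata25, Rmc1, Ghdc, Lrrc8c, Wdr81, Tmem189, Fam129b, Tspoap1, Peak1 and 6 microRNA hairpins. Those switched off were Cxcl9, Cxcl1, Rhob, Rhoh, Cited2, Nudt9, Cdyl2, Gm12216, Mir20a and Mir19b-1.

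The promoters of 5 genes that changed are shown because they hold letters of motifs bound by factors active after TLR4. They were picked from 8 searched, of which Gpnmb held AP-1 letters only and Ptges and Rhob held none of the marked motifs. They are 300 bases of the RefSeq annotation of GRCm38.p6, from 250 before to 50 after the start, read along the gene, with matches in capitals.
Saa3, chr7:46715627-46715926, minus strand: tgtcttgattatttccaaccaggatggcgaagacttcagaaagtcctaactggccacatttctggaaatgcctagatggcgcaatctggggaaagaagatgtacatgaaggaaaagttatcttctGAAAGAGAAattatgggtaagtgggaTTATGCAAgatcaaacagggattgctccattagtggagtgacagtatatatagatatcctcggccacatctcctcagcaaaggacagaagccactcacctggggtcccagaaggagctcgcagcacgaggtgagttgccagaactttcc
Lcn2, chr2:32387690-32387989, minus strand: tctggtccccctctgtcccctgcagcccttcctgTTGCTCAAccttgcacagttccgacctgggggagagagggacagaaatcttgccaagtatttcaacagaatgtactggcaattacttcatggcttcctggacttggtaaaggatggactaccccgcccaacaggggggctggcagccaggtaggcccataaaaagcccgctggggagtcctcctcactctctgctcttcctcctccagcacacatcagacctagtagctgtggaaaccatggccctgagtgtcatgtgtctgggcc
Cxcl9, chr5:92328030-92328329, minus strand: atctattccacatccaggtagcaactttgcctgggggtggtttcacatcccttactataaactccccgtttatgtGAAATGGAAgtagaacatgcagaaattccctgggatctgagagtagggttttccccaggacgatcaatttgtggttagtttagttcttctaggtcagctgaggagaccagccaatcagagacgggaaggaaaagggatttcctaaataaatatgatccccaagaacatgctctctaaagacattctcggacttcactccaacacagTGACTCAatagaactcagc
Icam1, chr9:21015690-21015989, plus strand: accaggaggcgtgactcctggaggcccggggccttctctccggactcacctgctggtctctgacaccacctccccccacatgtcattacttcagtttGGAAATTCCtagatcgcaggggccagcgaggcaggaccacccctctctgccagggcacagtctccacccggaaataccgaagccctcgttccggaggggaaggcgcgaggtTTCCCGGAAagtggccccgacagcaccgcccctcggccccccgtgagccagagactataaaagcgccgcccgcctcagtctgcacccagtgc
Cxcl1, chr5:90890995-90891294, plus strand: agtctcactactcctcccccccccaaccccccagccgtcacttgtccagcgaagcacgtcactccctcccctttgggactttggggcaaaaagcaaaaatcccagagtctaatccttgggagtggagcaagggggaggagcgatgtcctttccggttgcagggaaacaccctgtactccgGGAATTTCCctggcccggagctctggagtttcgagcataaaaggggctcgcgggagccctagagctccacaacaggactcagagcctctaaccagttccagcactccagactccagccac
The capitals mark, on either strand, kappa-B (GGANTTTCC) in Icam1 and Cxcl1, the interferon element ISRE (TTCNNTTTC) in Saa3 and Cxcl9, C/EBP (TTGCNNAA) in Saa3 and Lcn2, GAS (TTCNNNGAA) in Icam1 and AP-1 (TGANTCA) in Cxcl9, and no matches overlap. Among the 109 lower genes with a promoter, 4.59% held the kappa-B letters, 16.5% ISRE, 11.9% GAS, 7.34% C/EBP and 8.26% AP-1. Among the 178 higher genes the shares in the same order were 0.562%, 8.99%, 5.06%, 7.30% and 3.93%. Over the 2278 tested genes with a promoter they were 2.19%, 9.53%, 6.94%, 7.90% and 5.36%, and over all 27025 RefSeq promoters 1.23%, 8.57%, 8.47%, 10.8% and 7.93%. The C/EBP share was thus near that of the tested genes in both directions. Of the other letters searched, CRE (TGACGTCA) was in 4.59% of lower, 3.93% of higher and 3.95% of tested genes, ARE (TGACNNNGC) in 21.1%, 19.1% and 15.5%, and the TATA box, spelled TATAAA, in 11.01%, 7.30% and 7.86%. These are matches of letters in short windows, with no test.

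Called genes lay near one another in places. Runs of at least 3 called genes, each start within 200 kb of the next, numbered 10 for rises and 4 for falls. They held 39 of the 236 higher and 15 of the 152 lower genes. Genes not called were passed over, and the number of runs to be had by chance was not worked out. The runs at Rab3gap2, Alkbh1 and Wdr43 hold transcripts inside or overlapping 1 gene, so their members are not separate neighbours. The run at Mir18 holds only microRNA hairpins of the miR-17 cluster and their host transcript Mir17hg, so its members are not separate either. In the run at Mir23a, all members but Zswim4 are microRNA hairpins. The counts of runs are thus not counts of separate genes moving together. On chromosome 2, Zswim1, Spata25, Neurl2, Ctsa and Pltp rose by 1.85 ± 0.36, 2.87 ± 0.22, 2.72 ± 0.19, 1.74 ± 0.13 and 1.98 ± 0.13. Ctsa encodes a lysosomal protease and Pltp a phospholipid transfer protein, and these 2 overlap, so that shared reads cannot be assigned. On chromosome 16, Pam16, Coro7 and Vasn rose by 1.45 ± 0.09, 2.22 ± 0.10 and 2.08 ± 0.16, where Vasn lies within the span of Coro7. On chromosome 17, Has1, a hyaluronan synthase, rose by 1.08 ± 0.20 beside Fpr1 and Fpr2. Among the falls, Wdr43, a factor of ribosome assembly, fell by 1.32 ± 0.06 together with the small nucleolar RNAs Snord92 and Snord53 inside its span.

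MicroRNA hairpins moved in opposite directions in 2 clusters. MicroRNAs guide repressor complexes to mRNA through the seed, bases 2 to 8, and are cut from long primary transcripts, so these values describe the primary transcript over a hairpin and not the mature RNA. The mature forms of the miR-23a cluster, higher at 6 h, and of the miR-17 cluster, lower at 6 h, are printed from RefSeq with the seed in capitals.
miR-23a-3p: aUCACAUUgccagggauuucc
miR-27a-3p: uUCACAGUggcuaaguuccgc
miR-24-3p: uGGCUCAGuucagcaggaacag
miR-18a-5p: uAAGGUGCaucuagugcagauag
miR-19a-3p: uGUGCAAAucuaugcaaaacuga
miR-20a-5p: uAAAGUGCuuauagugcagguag
miR-19b-3p: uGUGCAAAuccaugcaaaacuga
miR-92a-3p: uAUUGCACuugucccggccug
miR-19a-3p and miR-19b-3p have the same seed. On chromosome 8, Mir23a had a median of 7.56 RPKM at 6 h and 1.79 RPKM at 2 h and rose by 1.59 ± 0.23, while Zswim4 beside it rose by 1.59 ± 0.08. Mir24-2 rose by 1.86 ± 0.17 and shares its bases with Mir3074-2 on the other strand. On chromosome 14, the host transcript Mir17hg had a median of 0.386 RPKM at 6 h and 2.01 RPKM at 2 h and fell by 1.41 ± 0.09. Mir20a fell by 1.75 ± 0.24. Hairpins are short: Mir20a rested on a median of 2 reads at 6 h and 10 reads at 2 h, and Mir24-2 on 13 and 2 reads, so counting limits them.

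**Figure D4:**
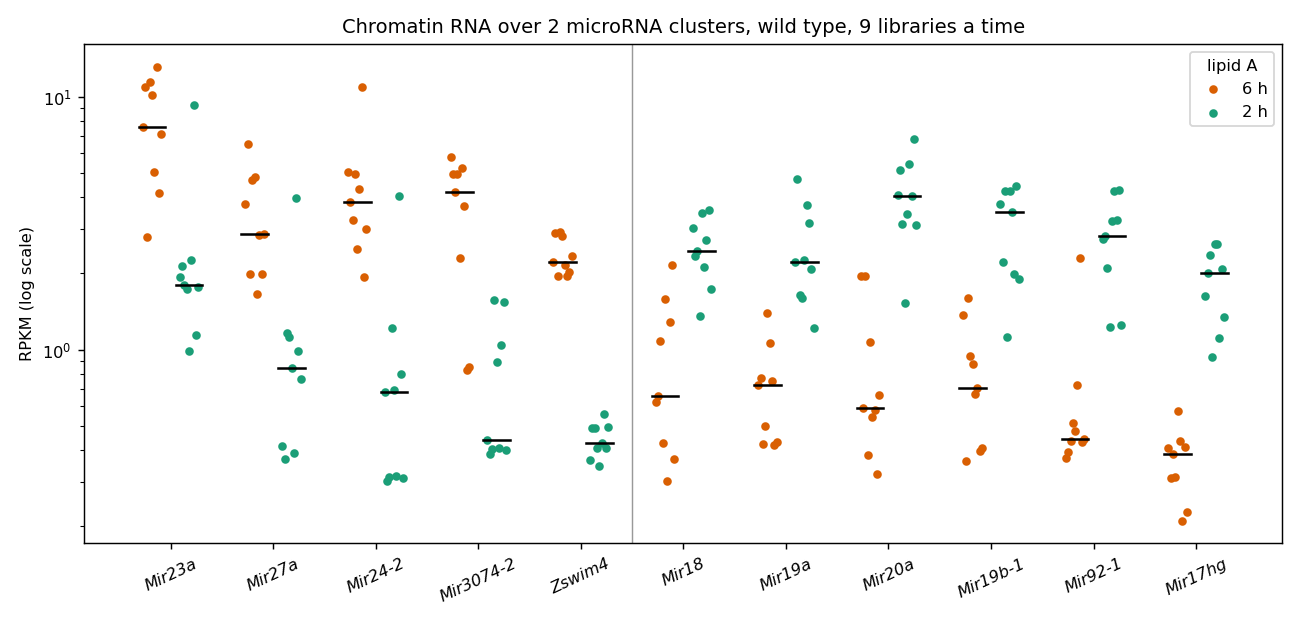
RPKM on a log scale (vertical) of hairpins and neighbouring transcripts in 9 wild-type libraries at 6 h (left points) and 9 at 2 h (right points); bars are medians. The miR-23a cluster with Zswim4, left of the line, is higher at 6 h and the miR-17 cluster, right of it, is lower.

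The series that had 1 library a time were set beside the step without a test. For the wild-type series labelled mRNA, the extraction text also speaks of chromatin. Of 228 higher genes with a value there, 51 were past 2-fold higher and 31 lower, against 13.3% and 9.08% of all genes with a value. Of these 228, 107 were above 0 and 114 below, with a median of -0.0013, so they had no common direction. Of 146 lower genes, 20 were past 2-fold higher and 38 lower. Of these 146, 62 were above 0 and 73 below, with a median of -0.01. Saa3 had 6019 RPKM at 6 h and 86.2 RPKM at 2 h, and Cxcl9, lower on chromatin, had 15.6 and 1.07 RPKM. In chromatin RNA under TNFa, 7 of 193 higher genes were past 2-fold higher and 0 lower, against 2.10% and 1.85%, and of 110 lower genes 2 were higher and 4 lower. Lcn2 had 0.0482 RPKM at 6 h and 0.0837 RPKM at 2 h of TNFa.

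The knockouts were compared with the wild type of their own series in the same step. Replicate 1 of Nfkb1-/- was the shallowest knockout, with 8.75 M reads at 6 h and 7.86 M at 2 h. Both depths lay below those of the 18 wild-type libraries. The targeted transcripts did not check the labels: Nfkb1 RNA at 6 h was 7.75, 11.8 and 13.8 RPKM in Nfkb1-/- and 4.67, 6.67 and 7.53 RPKM in wild type, Bcl3 RNA at 6 h was 29.5 and 40.9 RPKM in Bcl3-/- and 8.60 and 9.55 RPKM in wild type, and no value for the other targets was used. The step differed for 33 genes higher (1.02%) and 7 lower (0.216%) in Nfkb1-/-, and for 25 higher (0.771%) and 31 lower (0.956%) in Nfkbiz-/-. It differed for 0 genes in Bcl3-/- by limma, where 88 had an unadjusted p under 0.05, and for 1 gene higher (0.0309%) and 1 lower (0.0309%) in Nfkbid-/-, Mir1938 and Olfr99. Without the replicate block the counts were 3 in Nfkb1-/- and 3 in Nfkbiz-/-. With libraries centred on their median, 20 genes were higher and 19 lower in Nfkb1-/-, and 40 higher and 22 lower in Nfkbiz-/-. Leaving out 1 pair gave 18 to 59 genes in the Nfkb1 series and 6 to 28 in the Nfkbiz series. The genes below were also called in the wild-type step, which shares the wild-type libraries with the difference.

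Lcn2 stayed low at 6 h in both knockouts. At 6 h it had 0.0243, 0.0359 and 0.0737 RPKM in Nfkb1-/- and 4.95, 4.98 and 13.4 RPKM in wild type, and its step differed by -2.86 ± 0.43 (adjusted p = 0.0037 by limma). In the Nfkbiz series it had 0.0581 and 0.0666 RPKM in the knockout and 12.8 and 15.1 RPKM in wild type at 6 h, a difference of -3.48 ± 0.52 (adjusted p = 0.0040 by limma). Without the replicate block the adjusted p was 0.056 and 0.061 for these differences. Ptges went opposite ways, with a difference of 1.09 ± 0.18 in Nfkb1-/- and -1.74 ± 0.22 in Nfkbiz-/-, and the contrast between the 2 knockouts was not tested. Saa3 had 1.39 and 1.72 RPKM in Nfkbiz-/- and 100.5 and 123 RPKM in wild type at 6 h, but the difference in step, -3.08 ± 1.10, did not pass (adjusted p = 0.20 by limma).

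Several positive differences belong to genes that had lower levels at 2 h in the knockout. Adamts4 had 0.0210, 0.0217 and 0.0454 RPKM at 2 h in Nfkb1-/- and 2.65, 2.72 and 4.87 RPKM in wild type, and its step differed by 2.56 ± 0.26. Gpr132, a receptor for lipids, had 0.190, 0.520 and 0.597 RPKM at 2 h in Nfkb1-/- and 4.96, 5.0 and 6.10 RPKM in wild type (difference 1.80 ± 0.24). Icam1 had 37.8, 53.8 and 65.7 RPKM at 2 h in Nfkb1-/- and 69.4, 76.3 and 78.8 RPKM in wild type. At 6 h it had 30.2, 31.0 and 34.7 RPKM in Nfkb1-/- and 11.9, 16.3 and 18.4 RPKM in wild type, so the knockout was the lower at 2 h and the higher at 6 h, with no overlap at either time (difference in step 1.58 ± 0.28). In Nfkbiz-/-, Ptgs2 had 1.82 and 3.52 RPKM at 2 h, against 6.23 and 6.98 RPKM in wild type, and 23.3 and 29.9 RPKM at 6 h, against 22.3 and 22.4 RPKM in wild type.

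**Figure D5:**
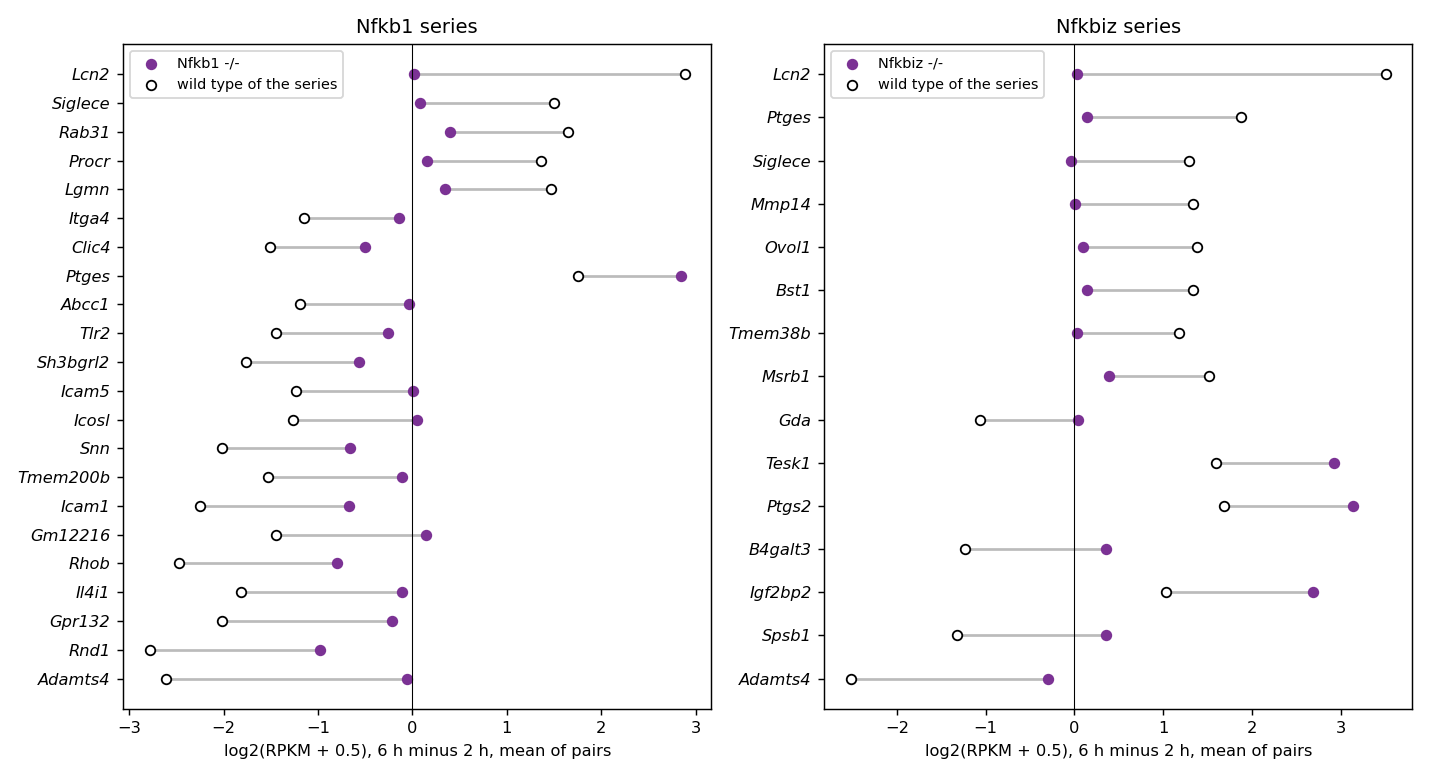
Mean change from 2 to 6 h on the log2(RPKM + 0.5) scale (horizontal) for genes called both in the wild-type step and in the difference, in Nfkb1-/- (left panel) and Nfkbiz-/- (right panel); filled points are knockouts and open points their wild type. Lcn2 lies near 0 in both knockouts.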

How the data were processed

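Chromatin-associated RNA was sequenced from mouse macrophages with a stranded kit, per the labels' protocols. The authors deposited RPKM values for 15196 genes with positions in mm9; HISAT2, SAMtools and mm9 are named in the submitters' processing notes, and the counting rule, strand setting and versions are not given in the sources used here. Read depth was recovered from the value of 1 read, and 92.9% to 99.0% of values worth up to 30 reads lay within 0.05 of a whole read. Of the genes, 1778 overlap another.

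Genes with at least 1 RPKM in at least 5 of the 18 libraries were tested with limma 3.58.1 in R 4.3.3 on log2(RPKM + 0.5), with the pair as a block and Benjamini-Hochberg adjustment over all tested genes. The pairing comes from the labels' replicate numbers within a series: same-numbered libraries deviated together, with correlations of 0.38 to 0.78. In the Nfkbiz, Bcl3 and Nfkbid series, with 2 replicates each, both replicates give the same value by construction (0.38, 0.48 and 0.67). The correlations are thus not all separate checks. The labels do not state separate cultures or animals, so p-values measure the spread between these libraries. Knockout steps came from 1 fit of 18 paired differences. The functions were tested on simulated data.

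Named genes were the 15 largest rises and falls, all switching genes, up to 4 called members a list in each direction, runs of neighbours, and the 5 largest knockout differences in each direction. Members, lists and rules were chosen with earlier results of these data known. Some genes of the pathway, Tnf and Il6 among them, were not analysed here.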

Additional observations from a re-analysis of the deposited data

Results flagged for a closer look

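For 7 of 139 named genes (5.04%), 1 of the 9 pairs lay far from the others, and chance flags about 1 in 20 groups. In all 7 the pair was replicate 1 of the Nfkb1 series, and it was the lowest. Its change was 0.60 for Adora2b, against 1.88 to 2.80 in the other pairs, and 1.38 for Coro7, against 2.18 to 2.46. It was 0.44 for Lrrc8c, 0.37 for Peak1, 0.50 for Tesk1, 0.94 for Lgmn and 1.10 for Ptgs2. The same pair had the lowest median over all tested genes, -0.18. It also had the lowest depth of each time, 16.2 M reads at 6 h and 11.5 M at 2 h. The part of that shift and of depth in these values was not tested. Without this pair, 265 genes were higher and 151 lower.

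The step of Ovol1, a zinc finger transcription factor, differed between the 4 wild-type series (adjusted p = 0.029 by limma). It was 0.23 in wild type of the Nfkb1 series, against 1.38 (Nfkbiz), 1.83 (Bcl3) and 1.54 (Nfkbid). Wild type of the Nfkb1 series had 0.0538, 0.0806 and 0.193 RPKM at 6 h and 0.00759, 0.0116 and 0.0374 RPKM at 2 h. Wild type of the Nfkbiz series had 1.16 and 1.31 RPKM at 6 h and 0.140 and 0.194 RPKM at 2 h. The added constant understates the change of low genes, and whether the fold rise differed between series was not tested.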

How the results depend on the processing

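No named gene of the step reversed in a setting that tested it. Of 139, 86 had a value under all 28 settings, and 57 of these kept their call in each; of the 53 left untested by some setting, 25 kept it wherever tested. The counts of the step depend on the added constant and the filter: 377 higher and 235 lower with 0.1, 136 and 100 with 1, and 144 and 95 with a filter of 3 RPKM. Dropping the replicate block, or fitting all 45 wild-type libraries, left 236 and 152. As the design is balanced, these change the errors and not the sizes, and every gene past 2-fold passed the p in each, so the size limit fixes the equal counts. Leaving out 1 pair gave 217 to 265 higher, 146 to 157 lower, 25 to 33 switching on and 9 to 15 switching off. Within 1 series, 20 (Nfkb1), 18 (Nfkbiz) and 16 (Bcl3) genes switched off, and the Bcl3 series had 358 higher and 43 switching on. Switch limits of 0.5 and 2 RPKM gave 11 on and 14 off, which turns the balance. For early induction the counts were 124, against 88 with a constant of 1 and 183 with centred libraries.

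The knockout differences were the least stable. In Nfkb1-/- 40 genes became 3 without the replicate block, 74 with a constant of 0.1 and 17 with 1. Leaving out a pair gave 18 (wild type 3) to 59 (knockout 3), with 19 and 21 without knockout 1 and 2 and 24 without wild type 2. In Nfkbiz-/- 56 genes became 3 without the block, and 6, 6, 16 and 28 without knockout 1, wild type 1, knockout 2 and wild type 2; the lone remaining pair was then assumed to vary like the others. In Nfkbid-/- 2 genes became 0 without the block or with centred libraries, 1 with a constant of 1, and 0 to 1 with a pair left out. Adamts4 and Gpr132 (Nfkb1-/-) and Adamts4, Ptges and Ovol1 (Nfkbiz-/-) passed without the block. The cause of each shift was not tested. Few reads limit the hairpins.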
